A study of Homo sapiens with 18 samples.

Results

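The line difference in the TG003 response is, for each gene, the log2 change with TG003 in KMS12-BM minus the log2 change with TG003 in JJN3. TG003 is a small-molecule inhibitor of the CLK kinases. KMS12-BM and JJN3 are established human lines, labelled as multiple myeloma and plasma cell leukemia, both cancers of plasma cells. The contrast used 12 of the 18 libraries, 3 in each of 4 groups: KMS12-BM with 0.4 mM TG003 for 24 h, KMS12-BM labelled untreated with DMSO, JJN3 with 0.4 mM TG003 for 24 h, and JJN3 labelled untreated with DMSO. No duration is given for DMSO. The other 6 libraries, treated with amiloride, were in no group of the contrast but entered the read filter, the scaling and the estimate of the spread. Without them 12803 protein-coding genes were tested, and the median interaction was -0.042 on the log2 scale, against 0.003 with them. Strand-specific RNA sequencing libraries from total RNA had been deposited as read counts per gene. Nothing in the labels says that libraries of 1 group were separate cultures, so p-values measure the spread between these libraries. The members are all protein-coding genes with enough reads to test, 13053 of 17772 genes tested.

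CLK kinases phosphorylate SR proteins, splicing factors rich in serine and arginine that help to choose exons. Plasma cells make and fold large amounts of secreted protein, so ribosome production, the chaperones of the endoplasmic reticulum (ER) and the factors IRF4, XBP1 and MYC are central to myeloma cells. KMS12-BM is known for a translocation that drives cyclin D1 (CCND1), and JJN3 for one that drives the factor MAF.

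The line labels matched these genes. CCND1 lay between 458 and 1155 CPM (read counts scaled by library size with TMM factors) in the 6 KMS12-BM libraries, against 0.738 to 1.55 CPM in the 6 JJN3 libraries. MAF lay between 0 and 0.522 CPM in KMS12-BM, against 713 to 1036 CPM in JJN3. Of the plasma cell markers, IRF4, XBP1, PRDM1, TNFRSF17 and MZB1 were at 18.6 CPM or more in every library. CD38 was low in JJN3 (2.07 to 5.28 CPM), SDC1 was low in KMS12-BM (2.38 to 14.04 CPM), and SLAMF7 reached at most 2.79 CPM. Of 21 markers of other cell types, 10 had enough reads to test, and their summed level was 137 to 153 CPM with TG003 and 138 to 158 CPM with DMSO in KMS12-BM, and 44.8 to 51.2 CPM with TG003 and 80.2 to 92.0 CPM with DMSO in JJN3. EPCAM was the highest of them in KMS12-BM, and in JJN3 HBB and EPCAM were. Between 25265042 and 50570234 reads per library lay in genes. Processed pseudogenes, genomic copies of spliced messengers, held 0.106% to 0.130% of reads with TG003 and 5.46% to 5.63% with DMSO in KMS12-BM, and 0.114% to 0.130% with TG003 and 5.46% to 5.61% with DMSO in JJN3. Reads were thus placed differently in the TG003 libraries, by nearly the same amount in both lines.

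The comparison asked which genes TG003 changed differently in the lines. A positive interaction means that the log2 change was more positive in KMS12-BM, a negative one that it was more negative there, and genes are called higher or lower in that sense at an adjusted p under 0.05 (edgeR quasi-likelihood test). Of 13053 protein-coding genes 2110 were called (16.2%), 1048 higher (8.03%) and 1062 lower (8.14%). Higher calls made up 49.7% of these. They made up 61.9% with library sizes from protein-coding genes alone (1478 higher, 908 lower), 40.4% in a fit to the 12 libraries alone (1095 higher, 1614 lower) and 34.6% with pseudogene counts summed into parent genes (874 higher, 1649 lower). TG003 against DMSO called 6852 genes in KMS12-BM (52.5%), 3406 up and 3446 down, and 6425 in JJN3 (49.2%), 3041 up and 3384 down. In bulk RNA, fewer cells of a kind and less RNA per cell cannot be told apart.

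The responses of the lines were correlated. The log2 changes in KMS12-BM and in JJN3 had a Pearson correlation of 0.665 and a Spearman correlation of 0.578 across the 13053 genes. Across the 8901 genes with at least 5 CPM in a group of each line, these were 0.856 and 0.697. Such correlations describe genes, which share libraries and are not independent. Both lines shared the difference in read placement between TG003 and DMSO libraries, and its part in these correlations was not tested. Of the 2110 called genes, 302 changed in the same direction in both lines and by more in KMS12-BM (2.31% of all tested), and 174 by more in JJN3 (1.33%). A further 801 were called in KMS12-BM with no call in JJN3 (6.14%), and 559 in JJN3 with no call in KMS12-BM (4.28%). Opposite calls were fewer: 138 genes rose in KMS12-BM and fell in JJN3 (1.06%), and 125 fell in KMS12-BM and rose in JJN3 (0.958%). The last 11 were called in neither line (0.0843%). The median size of a called interaction was 0.609 on the log2 scale, and 271 higher and 142 lower calls reached a 2-fold difference. Among the 8901 genes expressed in both lines 1700 were called (19.1%), 763 higher (8.57%) and 937 lower (10.5%), and 59 higher and 40 lower calls reached that size.

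**Figure D1:**
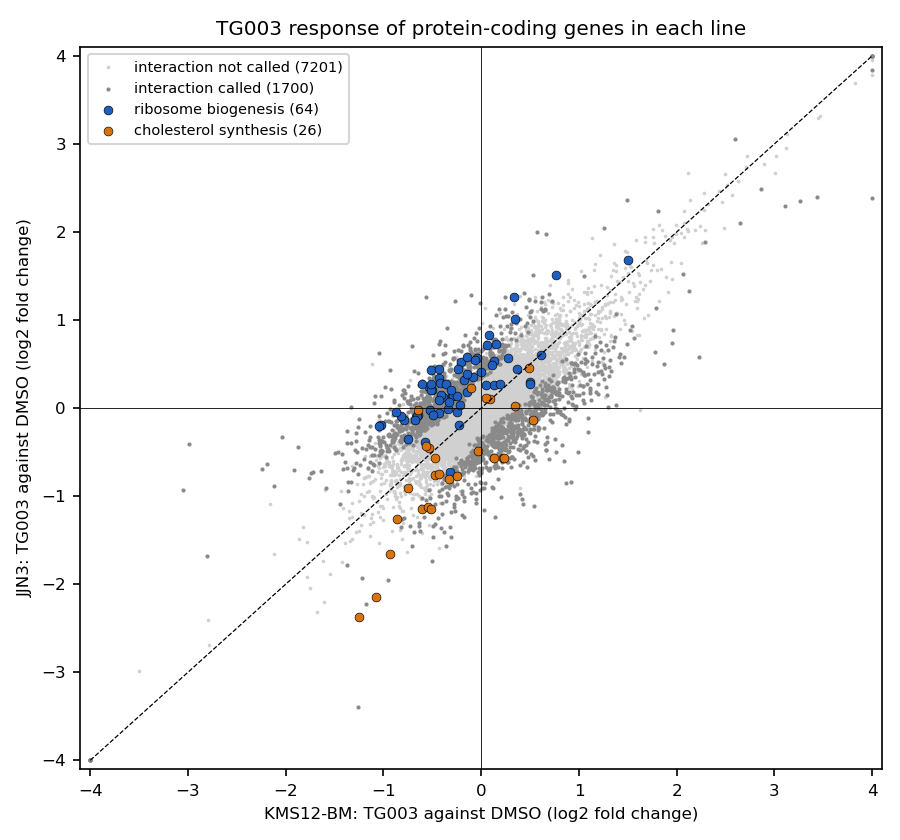
Log2 fold change of TG003 against DMSO in KMS12-BM and in JJN3 for the 8901 protein-coding genes with at least 5 CPM in a group of each line; 36 values beyond the axis limit of 4 are drawn at it. Most points follow the diagonal of equal change, and 1700 genes were called as departing from it.

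Among 34 gene lists, nucleolar ribosome biogenesis had the largest share of lower calls and cholesterol synthesis the largest share of higher calls. Of 64 ribosome biogenesis genes 42 were lower (65.6%) and 1 higher, against 8.14% and 8.03% of all genes. Of 26 cholesterol genes 13 were higher (50.0%) and 1 lower. Among splicing factors, 5 of 12 SR proteins and 9 of 27 hnRNP proteins were lower.

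**Figure D2:**
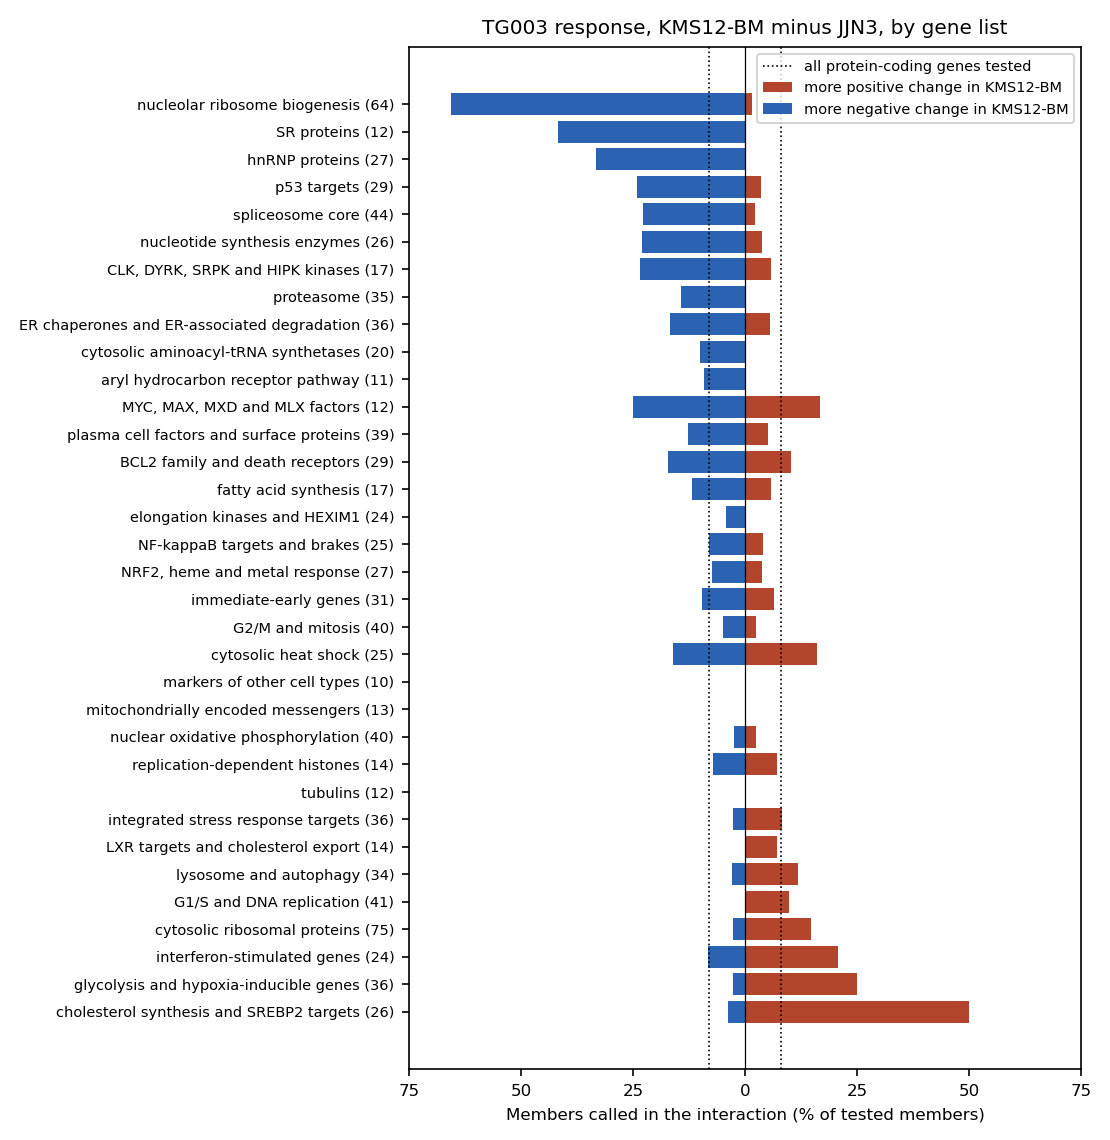
Share of the tested members of each of 34 gene lists called in the interaction, split into a more negative and a more positive change in KMS12-BM than in JJN3. Ribosome biogenesis reaches 65.6% on the lower side and cholesterol synthesis 50.0% on the higher side, against 8.14% and 8.03% of all protein-coding genes.

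The nucleolar genes encode the machinery that transcribes ribosomal RNA through RNA polymerase I, trims and modifies it, and assembles the ribosomal subunits. In KMS12-BM 36 of the 64 fell with TG003 and 8 rose (26.4% and 26.1% of all genes), with a median log2 change of -0.29. In JJN3 3 fell and 32 rose (25.9% and 23.3% of all genes), with a median of 0.27. The median interaction was -0.54, against 0.003 over all protein-coding genes, and 60 of the 64 values were negative. Among the 48 members with no named processed pseudogene, 33 were lower and 1 higher, with a median of -0.57. Their summed level was 5247 to 5559 CPM with TG003 and 6419 to 6647 CPM with DMSO in KMS12-BM, and 6472 to 6565 CPM with TG003 and 5620 to 6045 CPM with DMSO in JJN3. The sums did not overlap within either line: TG003 libraries were the lower ones in KMS12-BM and the higher ones in JJN3. The median log2 ratio of KMS12-BM to JJN3 over the 64 genes was -0.40 with TG003 and 0.07 with DMSO.

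Many such genes are known targets of MYC, which binds the E-box CACGTG. These letters, which read the same on both strands, were searched in RefSeq promoter windows of 300 bases (GRCh38.p14). They stood in 22 of the 53 members with a window (41.5%), in 10.1% of those of tested protein-coding genes and in 7.43% of all 27305. Among tested genes they stood in 17.3% of 865 windows of genes called lower, 10.2% of 860 of genes called higher and 9.34% of 8819 of genes not called. Within the list, the median interaction was -0.54 for the 22 members with the letters and -0.51 for the 31 without. Such a match is a description of letters and no binding site. Windows of 3 members are shown from 5′ to 3′ with CACGTG in capitals, because they combine the motif with the largest interactions among the members called in opposite directions:
WDR43 (chr2:28894417-28894716, plus strand): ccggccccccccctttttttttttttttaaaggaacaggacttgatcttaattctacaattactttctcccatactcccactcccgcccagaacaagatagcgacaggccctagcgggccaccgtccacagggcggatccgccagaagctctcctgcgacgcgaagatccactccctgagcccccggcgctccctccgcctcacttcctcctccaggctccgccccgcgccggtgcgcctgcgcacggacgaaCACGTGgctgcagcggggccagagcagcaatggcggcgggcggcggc
PNO1 (chr2:68157638-68157937, plus strand): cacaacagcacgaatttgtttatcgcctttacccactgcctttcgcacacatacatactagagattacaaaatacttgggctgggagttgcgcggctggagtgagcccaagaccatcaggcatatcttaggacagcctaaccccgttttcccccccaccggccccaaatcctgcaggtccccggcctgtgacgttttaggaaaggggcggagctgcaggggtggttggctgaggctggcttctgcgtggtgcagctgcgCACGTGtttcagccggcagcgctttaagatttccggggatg
EBNA1BP2 (chr1:43172521-43172820, minus strand): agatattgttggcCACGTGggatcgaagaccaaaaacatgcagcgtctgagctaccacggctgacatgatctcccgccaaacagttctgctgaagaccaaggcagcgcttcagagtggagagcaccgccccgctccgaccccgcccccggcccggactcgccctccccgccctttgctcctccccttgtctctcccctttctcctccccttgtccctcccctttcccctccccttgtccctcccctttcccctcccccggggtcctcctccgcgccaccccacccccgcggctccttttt
The motif begins at base 254 of the window in WDR43, at base 260 in PNO1 and at base 14 in EBNA1BP2.

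WDR43 encodes a component of the complex that processes the ribosomal RNA of the small subunit (chromosome 2, 29117533 to 29171085, GRCh37/hg19). It had 96.95, 93.8 and 102 CPM with TG003 and 134, 148 and 136 CPM with DMSO in KMS12-BM. It had 117, 129 and 124 CPM with TG003 and 97.8, 86.1 and 90.4 CPM with DMSO in JJN3. TG003 libraries were all lower in KMS12-BM and all higher in JJN3, with log2 changes (± SE) of -0.51 ± 0.07 in KMS12-BM and 0.43 ± 0.07 in JJN3 (interaction -0.95 ± 0.10, adjusted p = 6.91e-06). PNO1, an assembly factor of the small subunit, had 37.2, 31.8 and 33.6 CPM with TG003 and 50.5, 45.01 and 43.2 CPM with DMSO in KMS12-BM. It had 43.7, 43.5 and 43.9 CPM with TG003 and 33.2, 32.6 and 30.8 CPM with DMSO in JJN3. Its groups did not overlap in either line and its changes also had opposite signs (interaction -0.87 ± 0.12, adjusted p = 6.88e-05). EBNA1BP2, an assembly factor of the large subunit, had 52.8, 47.1 and 54.7 CPM with TG003 and 76.99, 75.4 and 83.3 CPM with DMSO in KMS12-BM. It had 176, 162 and 156 CPM with TG003 and 162, 127 and 119 CPM with DMSO in JJN3. The JJN3 groups overlapped by the lowest TG003 and the highest DMSO library, while those of KMS12-BM did not (interaction -0.88 ± 0.14, adjusted p = 0.000276). WDR12, WDR74, POLR1A, MRTO4, DDX10 and URB1 also fell in KMS12-BM and rose in JJN3, making 9 of 64, against 0.958% of all genes.

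For 17 members the call was in KMS12-BM with none in JJN3. DDX21, a nucleolar helicase, fell in KMS12-BM (-0.82 ± 0.07) and had -0.09 ± 0.07 in JJN3. URB2, a ribosome assembly factor, had 47.8, 39.03 and 45.4 CPM with TG003 and 80.8, 80.4 and 80.4 CPM with DMSO in KMS12-BM. It had 39.3, 43.3 and 41.5 CPM with TG003 and 43.7, 44.95 and 38.9 CPM with DMSO in JJN3. Its DMSO libraries in KMS12-BM stood above all others (interaction -0.83 ± 0.11, adjusted p = 8.47e-05). For 13 members the call was in JJN3 with none in KMS12-BM. FTSJ3, an RNA methyltransferase, rose in JJN3 (0.83 ± 0.10) and had 0.08 ± 0.10 in KMS12-BM. HEATR1, which helps RNA polymerase I transcription, rose in JJN3 (0.58 ± 0.10) and had -0.15 ± 0.10 in KMS12-BM. BOP1, which processes ribosomal RNA of the large subunit, rose in both lines, by 0.77 ± 0.11 in KMS12-BM and 1.51 ± 0.11 in JJN3.

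Genes of RNA polymerase I and its factors, picked from the list as examples, were called lower or not called. POLR1A, the largest subunit, fell in KMS12-BM (-0.51 ± 0.07) and rose in JJN3 (0.20 ± 0.07), and POLR1B fell in KMS12-BM (-0.79 ± 0.07) with -0.14 ± 0.07 in JJN3. The interaction was -0.85 ± 0.17 for POLR1G, -0.71 ± 0.14 for the initiation factor RRN3 and -0.39 ± 0.10 for UBTF, which acts at the ribosomal RNA genes, and each was called. POLR1C (-0.22 ± 0.16) and POLR1E (0.01 ± 0.16) were not called, and neither was TAF1D, an initiation factor (0.23 ± 0.18). FBL, the methyltransferase fibrillarin, was the member called higher. It had 374, 396 and 419 CPM with TG003 and 502, 469 and 516 CPM with DMSO in KMS12-BM. It had 409.8, 382 and 385 CPM with TG003 and 656, 658 and 627 CPM with DMSO in JJN3, and so fell in both lines and further in JJN3 (interaction 0.40 ± 0.10, adjusted p = 0.0108). NPM1, an abundant nucleolar chaperone with named processed pseudogenes, had no called interaction (-0.18 ± 0.10).

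**Figure D3:**
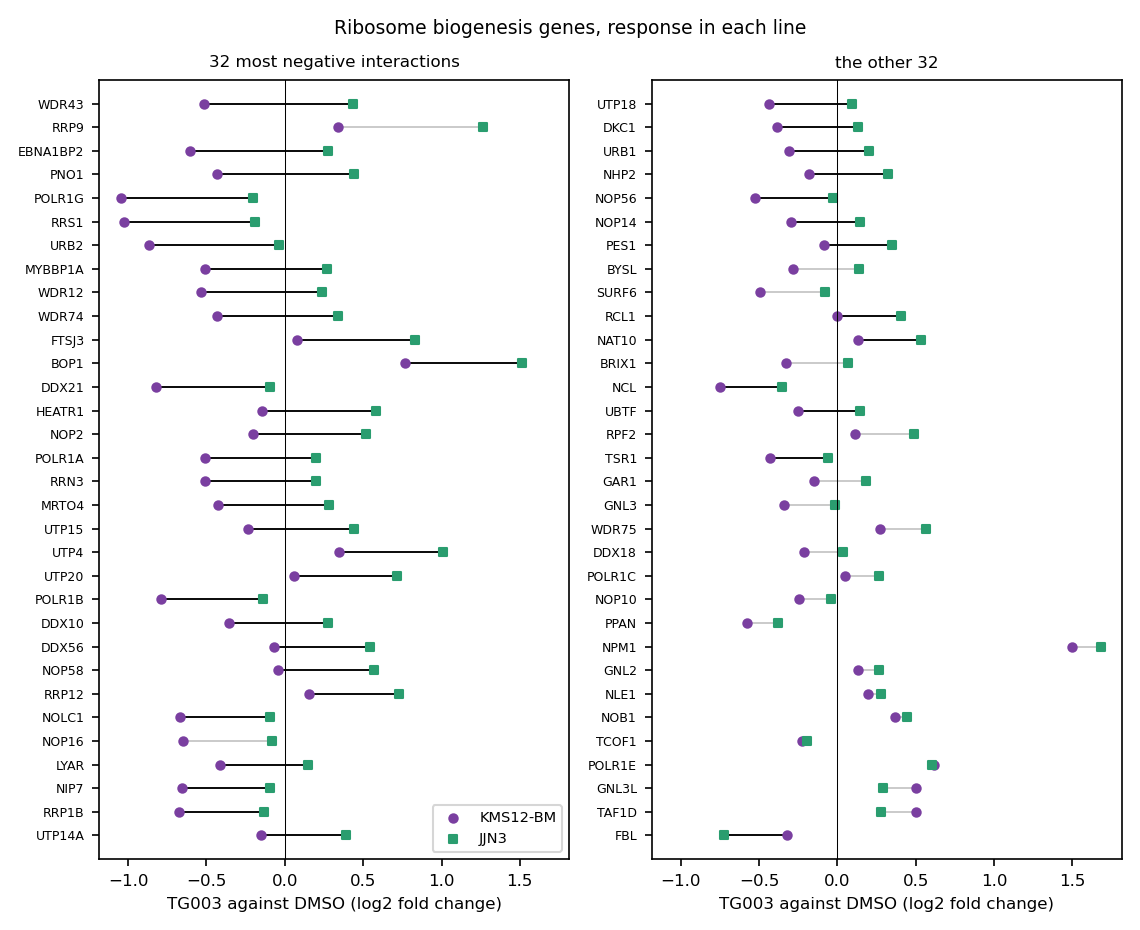
Log2 fold change of TG003 against DMSO in KMS12-BM and in JJN3 for the 64 ribosome biogenesis genes; a black line joins the values where the interaction was called, a grey one where it was not. The change in KMS12-BM is the more negative one for 60 of them, and FBL is the member called the other way.

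MYC, the factor that drives ribosome production and growth, fell in both lines and further in KMS12-BM. It had 753, 740.0 and 730.5 CPM with TG003 and 1586, 1496 and 1421 CPM with DMSO in KMS12-BM. It had 1450.0, 1361 and 1451 CPM with TG003 and 1945, 1994 and 2034 CPM with DMSO in JJN3. The groups did not overlap in either line, and the changes were -1.02 ± 0.11 in KMS12-BM and -0.49 ± 0.11 in JJN3 (interaction -0.53 ± 0.15, adjusted p = 0.0206). Of 12 genes of the MYC, MAX, MXD and MLX network, 3 were lower (MYC, MNT and MLX) and 2 higher (MXI1 and MXD1). These were 25% and 16.7%, against 8.14% and 8.03% of all genes. MNT, a repressor that pairs with MAX, fell in KMS12-BM (-0.70 ± 0.11) and had -0.17 ± 0.11 in JJN3, a call lost without KMS12-BM DMSO library 1, JJN3 DMSO library 2, KMS12-BM TG003 library 2 or 3, or JJN3 TG003 library 3. MXD1 and MXI1, antagonists of MYC, fell in JJN3 (-0.56 ± 0.10 and -0.50 ± 0.08) and had -0.06 ± 0.10 and -0.04 ± 0.08 in KMS12-BM. The call of MXD1 was lost with no filter and without JJN3 DMSO library 3, KMS12-BM TG003 library 2 or JJN3 TG003 library 1. Of 26 enzymes of nucleotide synthesis 6 were lower (23.1%) and 1 higher (3.85%), with DHODH, which makes pyrimidines, at -0.63 ± 0.15. That count of 6 was 2 without KMS12-BM TG003 library 2, 3 without JJN3 DMSO library 2, 11 in the 12 libraries alone and 10 with pseudogene counts summed.

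CLK1, CLK2 and CLK4 rose in both lines and CLK3 in KMS12-BM, and the 4 interactions did not share a sign. CLK1 had 69.99, 85.5 and 80.6 CPM with TG003 and 19.4, 20.9 and 23.7 CPM with DMSO in KMS12-BM. It had 89.9, 109.6 and 102 CPM with TG003 and 23.4, 27.9 and 26.6 CPM with DMSO in JJN3. It rose in both lines (1.88 ± 0.16 in KMS12-BM, 1.96 ± 0.16 in JJN3), and its interaction was not called (interaction -0.07 ± 0.22, adjusted p = 0.945). CLK4 also rose in both lines (1.81 ± 0.15 in KMS12-BM, 1.22 ± 0.15 in JJN3), with no call (interaction 0.60 ± 0.21, adjusted p = 0.0648), although 7 of 22 settings called it, DESeq2 (adjusted p = 0.0303) and the replicate block among them. CLK2 rose by 0.72 ± 0.10 in KMS12-BM and 1.22 ± 0.10 in JJN3 (interaction -0.50 ± 0.14, adjusted p = 0.0235), a call lost without KMS12-BM TG003 library 1 (0.0592) or JJN3 TG003 library 2 (0.0610). CLK3 had 54.6, 57.2 and 52.9 CPM with TG003 and 29.1, 27.7 and 31.4 CPM with DMSO in KMS12-BM. It had 65.9, 58.4 and 57.4 CPM with TG003 and 51.4, 50.8 and 58.2 CPM with DMSO in JJN3. It rose in KMS12-BM, with 0.18 ± 0.10 and no call in JJN3 (interaction 0.72 ± 0.14, adjusted p = 0.00135). PRPF4B, a kinase of the spliceosome, fell in KMS12-BM (-0.22 ± 0.07) and rose in JJN3 (0.34 ± 0.07). CLK2, CLK3 and PRPF4B have named processed pseudogenes, and the part of read placement in their values was not tested.

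Most messengers of splicing factors were not called. Of 12 SR proteins 5 were lower (41.7%, median -0.27), of 27 hnRNP proteins 9 (33.3%, median -0.23), and of 44 core spliceosome genes 10 (22.7%), with 1 higher (median -0.17), against 8.14% lower among all genes. SRSF7, an SR protein, had 149, 134 and 155 CPM with TG003 and 211, 213 and 226 CPM with DMSO in KMS12-BM. It had 221, 227 and 228 CPM with TG003 and 217, 212 and 193 CPM with DMSO in JJN3. It fell in KMS12-BM without overlap (-0.57 ± 0.08) and had 0.12 ± 0.08 in JJN3 (interaction -0.69 ± 0.11, adjusted p = 0.000268). SRSF3, SRSF2, SRSF6 and TRA2B were the other lower SR members, and SRSF4 fell with log2 changes of -0.72 ± 0.07 in KMS12-BM and -0.72 ± 0.07 in JJN3, with no call. SYNCRIP, an hnRNP protein, fell in KMS12-BM (-0.33 ± 0.06) and rose in JJN3 (0.15 ± 0.06). PRPF19, a ubiquitin ligase of the spliceosome, rose in JJN3 (0.76 ± 0.10) with -0.04 ± 0.10 in KMS12-BM. Of members with no named pseudogene, 2 of 6 SR, 2 of 11 hnRNP and 9 of 30 spliceosome genes were lower. The SR count was 3 without JJN3 DMSO library 3 or KMS12-BM TG003 library 2, where the calls of TRA2B and SRSF6 were lost (that of SRSF6 also without KMS12-BM DMSO library 1), and the spliceosome count 6 without KMS12-BM TG003 library 2 or JJN3 TG003 library 1. The hnRNP count was 14 with pseudogene counts summed.

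Genes of cholesterol synthesis lay on the other side. They are switched on by the factor SREBP2 when sterols are low. TG003 lowered 16 of 26 in KMS12-BM and raised 3 (median -0.45), and lowered 19 and raised 2 in JJN3 (median -0.57). Among all genes 26.4% were lowered and 26.1% raised in KMS12-BM, and 25.9% were lowered and 23.3% raised in JJN3. Of the 13 called higher (50.0%, against 8.03% of all genes), 9 fell in both lines and further in JJN3. The summed level of the 26 genes was 1942 to 2168 CPM with TG003 and 2621 to 3091 CPM with DMSO in KMS12-BM, and 2931 to 3153 CPM with TG003 and 6457 to 8079 CPM with DMSO in JJN3. The JJN3 DMSO libraries were the highest, and the gene INSIG1 alone held 2688 to 4130 CPM of their sums. INSIG1 held 534 to 800 CPM with TG003 in JJN3. In KMS12-BM it held 217 to 322 CPM with DMSO and 110 to 137 CPM with TG003. The median log2 ratio of KMS12-BM to JJN3 over the 26 genes was -0.18 with TG003 and -0.74 with DMSO. Of 22 members with no named pseudogene 10 were higher and 1 lower (8.24% and 7.65% of all such genes). The count of 13 was 8 without JJN3 DMSO library 2 or KMS12-BM TG003 library 3.

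INSIG1, a target and a brake of the SREBP pathway, had 115, 109.7 and 137 CPM with TG003 and 217, 321 and 322 CPM with DMSO in KMS12-BM. It had 534, 619.9 and 800.0 CPM with TG003 and 2688, 3288 and 4130.0 CPM with DMSO in JJN3. The groups did not overlap in either line, and the changes were -1.25 ± 0.19 in KMS12-BM and -2.37 ± 0.20 in JJN3 (interaction 1.123 ± 0.27, adjusted p = 0.0103). HMGCS1, which makes the precursor of mevalonate, had 156, 133 and 156 CPM with TG003 and 216, 387 and 334 CPM with DMSO in KMS12-BM. It had 106, 126 and 119.5 CPM with TG003 and 455, 533 and 566 CPM with DMSO in JJN3. It fell in both lines without overlap and further in JJN3 (interaction 1.07 ± 0.21, adjusted p = 0.00284). FDPS, ACAT2 and MVD fell in JJN3 with no call in KMS12-BM, and FDPS had the smallest p of the list (interaction 0.69 ± 0.14, adjusted p = 0.00205). The call of MVD was lost without any of 6 libraries: KMS12-BM DMSO 2 or 3, JJN3 DMSO 2 or 3, KMS12-BM TG003 1 or JJN3 TG003 2. TM7SF2, a sterol reductase and the member called lower, fell in KMS12-BM (-0.65 ± 0.12) and had -0.02 ± 0.13 in JJN3, a call lost without JJN3 TG003 library 3. SQLE, the squalene epoxidase, fell in both lines and had no called interaction (0.16 ± 0.16). The letters TCACNCCAC of the sterol response element, on both strands, stood in 1 of 20 promoter windows of the list and in 1.11% of those of the tested protein-coding genes.

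Of 36 genes of glycolysis and the hypoxia response, TG003 lowered 22 in KMS12-BM and 28 in JJN3 (26.4% and 25.9% of all genes). In the interaction 9 were higher (25%) and 1 lower (2.78%), with a median of 0.23, against 8.03% and 8.14% of all genes. Of 21 members with no named pseudogene 7 were higher and 0 lower, with a median of 0.41 (8.24% and 7.65% of all such genes). ALDOC and ALDOA, aldolases of glycolysis, fell further in JJN3 (0.70 ± 0.16 and 0.55 ± 0.13). VEGFA, the vascular growth factor, had 31.2, 37.8 and 36.3 CPM with TG003 and 56.5, 56.6 and 60.8 CPM with DMSO in KMS12-BM. It had 93.1, 118 and 106 CPM with TG003 and 214, 269 and 323 CPM with DMSO in JJN3. It fell in both lines without overlap and further in JJN3 (interaction 0.62 ± 0.18, adjusted p = 0.024), a call lost without KMS12-BM DMSO library 1 or 2, JJN3 DMSO library 3, KMS12-BM TG003 library 2 or 3, or JJN3 TG003 library 1. HK2, the inducible hexokinase and the member called lower, had 54.97, 47.1 and 51.5 CPM with TG003 and 116, 105 and 126 CPM with DMSO in KMS12-BM. It had 118, 109 and 108 CPM with TG003 and 160.1, 154 and 149.8 CPM with DMSO in JJN3. It fell in both lines and further in KMS12-BM (interaction -0.71 ± 0.11, adjusted p = 0.00029). The count of 9 was 3 without KMS12-BM DMSO library 2 or JJN3 DMSO library 3, 4 without KMS12-BM TG003 library 3, and 5 without JJN3 TG003 library 1 or 2.

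**Figure D4:**
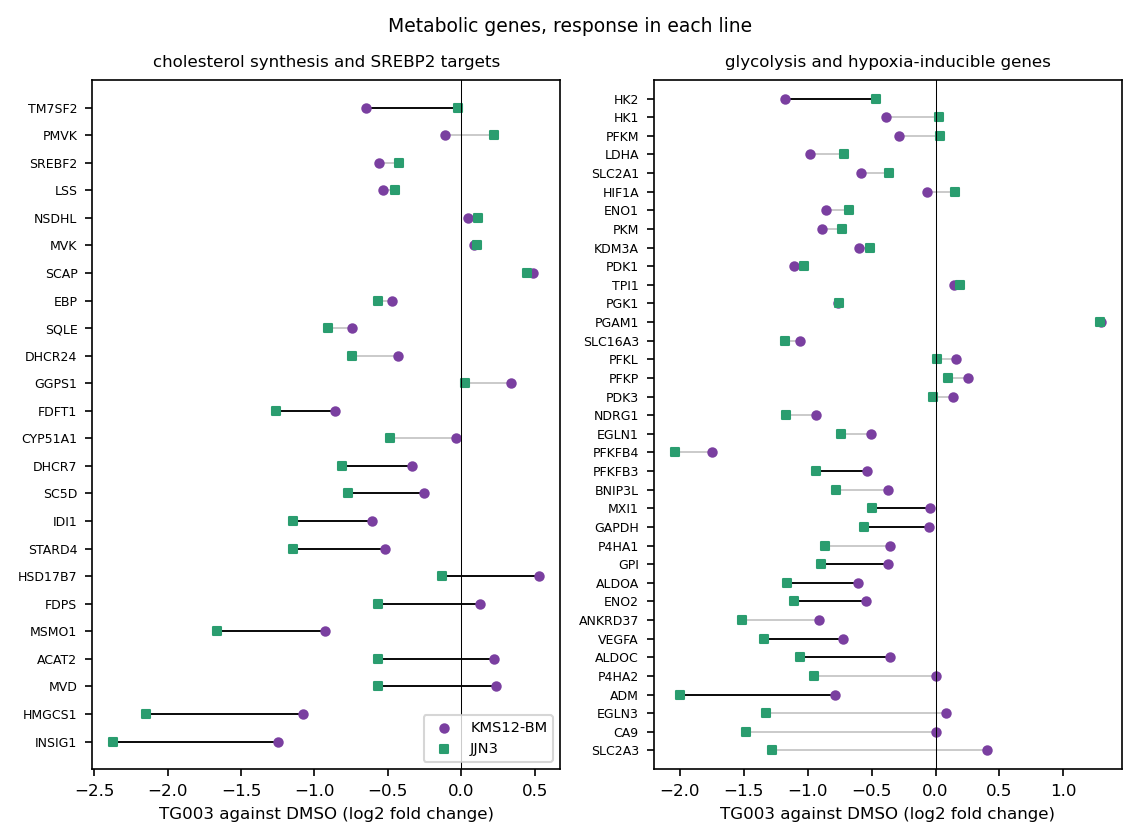
Log2 fold change of TG003 against DMSO in KMS12-BM and in JJN3 for 24 of the 26 cholesterol genes and the 36 glycolysis and hypoxia genes; a black line joins the values where the interaction was called, a grey one where it was not. INSIG1 and HMGCS1 fall further in JJN3, and TM7SF2 and HK2 are the members called the other way.

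Most ER genes fell in each line, and 22.2% were called in the interaction, against 16.2% of all genes. Of 36 genes of ER chaperones and degradation TG003 lowered 25 and raised 4 in KMS12-BM, and lowered 22 and raised 4 in JJN3 (26.4% and 25.9% of all genes were lowered). In the interaction 6 were lower (16.7%) and 2 higher (5.56%), against 8.14% and 8.03% of all genes. HSPA5, the chaperone BiP, had 491, 345 and 372 CPM with TG003 and 1430.0, 1337 and 1274 CPM with DMSO in KMS12-BM. It had 438, 414 and 429 CPM with TG003 and 711, 702 and 717 CPM with DMSO in JJN3. The TG003 libraries of both lines overlapped, while the DMSO libraries of KMS12-BM stood above those of JJN3 (interaction -1.01 ± 0.13, adjusted p = 5.79e-05). XBP1, the factor that expands the ER in plasma cells, CALR, HERPUD1, HYOU1 and HSP90B1 were the other lower members, from -0.67 ± 0.14 for XBP1 to -0.35 ± 0.11 for HSP90B1. HSPA5 and XBP1 have named processed pseudogenes. Among the 32 members with none, 4 were lower and 2 higher (7.65% and 8.24% of all such genes). The call of HSP90B1 was lost under 13 of 22 settings, among them 10 of the 12 that leave out a library. ERO1A and P4HB, which form disulfide bonds, were higher, and the call of P4HB was lost under 7 settings, 5 of them without KMS12-BM DMSO library 3, JJN3 DMSO library 3, KMS12-BM TG003 library 1 or 2, or JJN3 TG003 library 2.

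Of 39 plasma cell genes TG003 lowered 22 in KMS12-BM and 26 in JJN3 (26.4% and 25.9% of all genes). In the interaction 5 were lower (12.8%) and 2 higher (5.13%), against 8.14% and 8.03% of all genes. SDC1, the surface marker CD138, had 3.18, 2.38 and 3.69 CPM with TG003 and 13.7, 14.04 and 13.1 CPM with DMSO in KMS12-BM. It had 81.1, 84.1 and 96.9 CPM with TG003 and 150.3, 161 and 175 CPM with DMSO in JJN3. It fell in both lines without overlap and further in KMS12-BM (interaction -1.23 ± 0.16, adjusted p = 4.53e-05). XBP1, IKZF1, POU2AF1 and CXCR4 were also lower, and the count of 5 was 8 in the 12 libraries alone or with pseudogene counts summed. The count of 2 higher was 4 with no filter, in the 12 libraries alone or without KMS12-BM DMSO library 1, and 1 without KMS12-BM DMSO library 3, where the call of BCL6 was lost. The higher calls were GPRC5D and BCL6, of which BCL6 had 0 CPM in all KMS12-BM DMSO libraries and at most 0.0781 CPM with TG003, so no fold is given. IRF4, on which myeloma cells depend, fell in both lines (-1.32 ± 0.10 in KMS12-BM, -1.08 ± 0.10 in JJN3) with no called interaction (interaction -0.25 ± 0.14, adjusted p = 0.291).

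Of 24 interferon-stimulated genes 5 were higher (20.8%) and 2 lower (8.33%), against 8.03% and 8.14% of all genes. IRF1, a factor that induces interferon genes, had 10.3, 12.3 and 12.8 CPM with TG003 and 8.22, 7.29 and 8.74 CPM with DMSO in KMS12-BM. It had 26.3, 27.8 and 23.8 CPM with TG003 and 46.3, 60.03 and 62.3 CPM with DMSO in JJN3. It rose in KMS12-BM and fell in JJN3 without overlap in either line (interaction 1.66 ± 0.19, adjusted p = 1.38e-05). STAT2 rose in both lines, by 0.91 ± 0.09 in KMS12-BM and 0.37 ± 0.09 in JJN3. IRF9 rose in KMS12-BM and fell in JJN3 at levels under 2 CPM, and OAS1 rose in KMS12-BM with no call in JJN3. The 2 lower calls, ZBP1 and OAS2, were lost under 10 and 14 of 22 settings, among them limma-voom. TNFSF10, the death ligand TRAIL, is not one of the 24 and was named for the size of its interaction. It had 10.99, 12.7 and 10.98 CPM with TG003 and 6.90, 5.93 and 6.19 CPM with DMSO in KMS12-BM. It had 17.02, 14.5 and 15.2 CPM with TG003 and 27.8, 27.6 and 28.8 CPM with DMSO in JJN3. It rose in KMS12-BM and fell in JJN3 without overlap (interaction 1.72 ± 0.17, adjusted p = 2.42e-06).

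**Figure D5:**
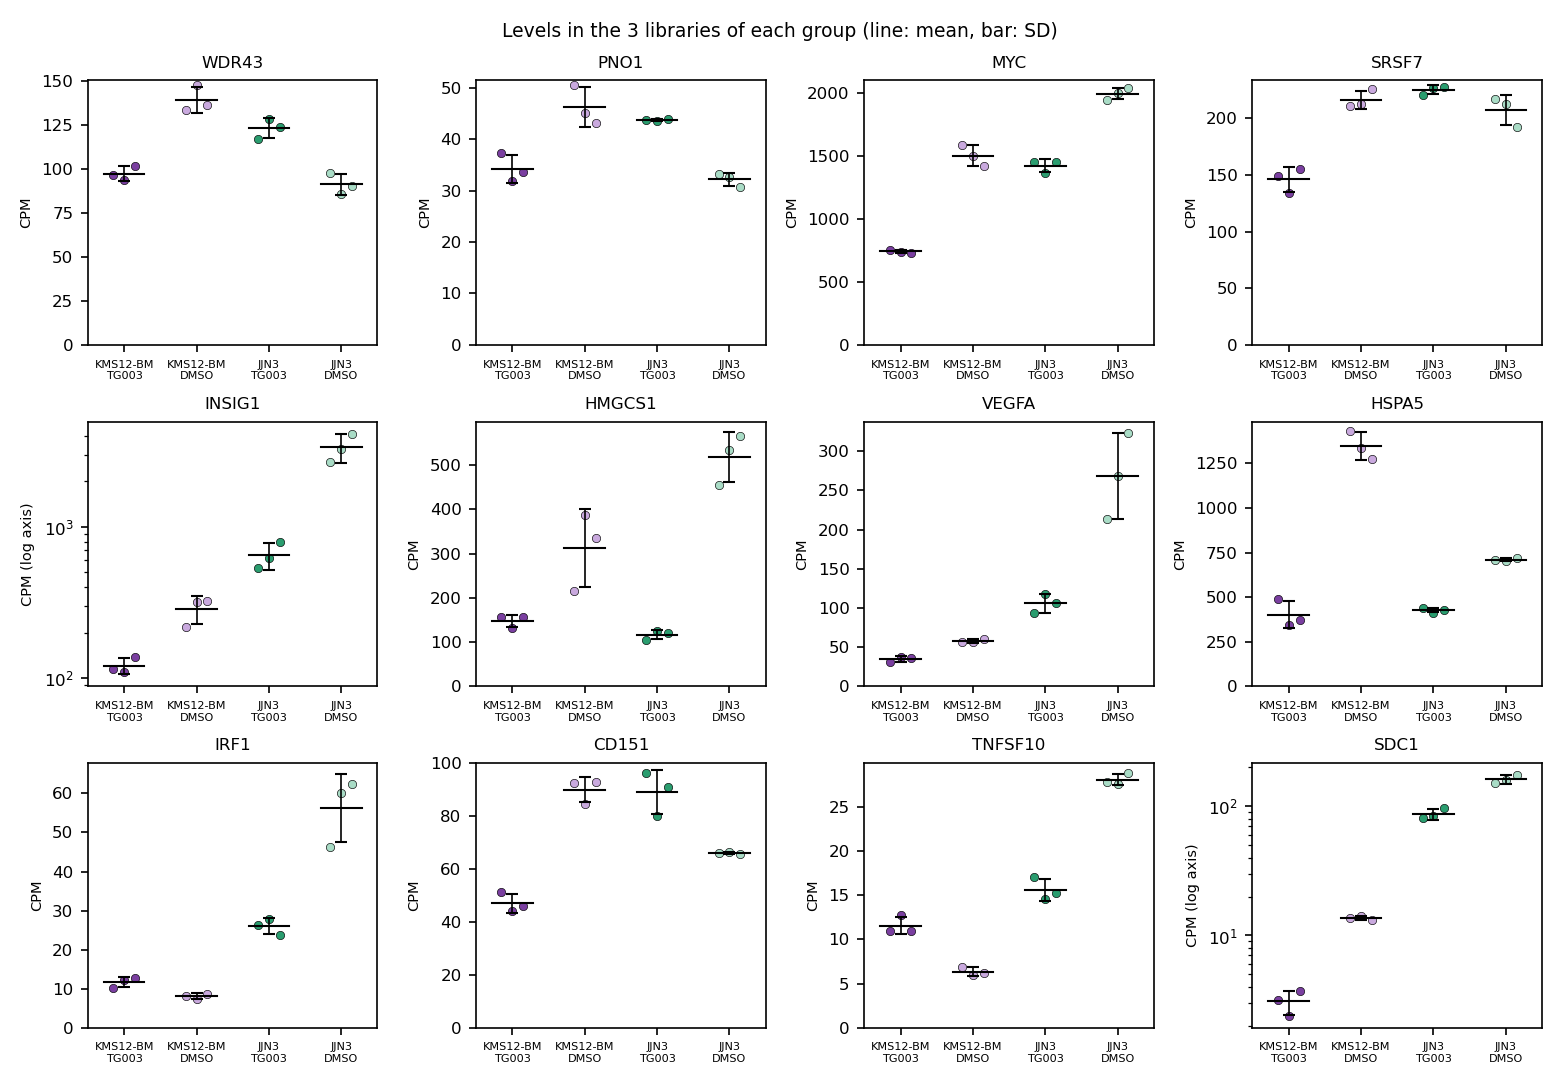
CPM of 12 genes in each of the 3 libraries of the 4 groups, with the group mean and SD. WDR43 and PNO1 are lower with TG003 than with DMSO in KMS12-BM and higher in JJN3, and IRF1 and TNFSF10 show the reverse.

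Genes of cell death were called in both directions, and genes of the cell cycle were called less often than all genes in the main fit. Of 29 BCL2 family and death receptor genes 5 were lower (17.2%) and 3 higher (10.3%), against 8.14% and 8.03% of all genes. The 3 were 1 without KMS12-BM DMSO library 2, JJN3 DMSO library 2, KMS12-BM TG003 library 2 or JJN3 TG003 library 3. BAK1, a pore-forming killer protein, fell in KMS12-BM (-0.29 ± 0.09) and rose in JJN3 (0.57 ± 0.09), and CASP8, an initiator caspase, fell in KMS12-BM (-0.80 ± 0.07) with -0.12 ± 0.07 in JJN3. The death receptor FAS rose in JJN3 (0.68 ± 0.10) and had -0.11 ± 0.10 in KMS12-BM. BCL2L1 and BCL2L2, which protect cells, fell in JJN3 with no call in KMS12-BM (interactions 0.44 ± 0.13 and 0.91 ± 0.17), and the call of BCL2L1 was lost under 8 of 22 settings. Of 29 p53 targets 7 were lower (24.1%) and 1 higher (0 or 1 under 23 settings), AEN, TIGAR and TP53I3 among the lower. Of 41 genes of the G1/S step and DNA replication 4 were higher and 0 lower (9.76% called). Of 40 G2/M genes 1 was higher and 2 lower (7.5% called), counts that were 0 to 1 and 1 to 7 under 23 settings. Among all genes 16.2% were called. E2F8, a repressor of the E2F family, rose in KMS12-BM (0.51 ± 0.11) and fell in JJN3 (-0.52 ± 0.11). E2F7, its relative, fell in JJN3 (-1.01 ± 0.11) and had 0.20 ± 0.11 in KMS12-BM. The stress factors ATF4 (interaction -0.34 ± 0.11, adjusted p = 0.0532) and DDIT3 (interaction 0.74 ± 0.31, adjusted p = 0.13) had no called interaction, although 6 of 22 settings called ATF4, DESeq2 and the replicate block among them, and 2 called DDIT3.

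The largest interactions among genes with at least 5 CPM in a group of each line, a choice made after seeing the data, lay in genes of several kinds. F2RL3, a thrombin receptor, had 2.63, 1.27 and 2.58 CPM with TG003 and 19.7, 17.3 and 15.8 CPM with DMSO in KMS12-BM. It had 46.7, 43.1 and 39.6 CPM with TG003 and 61.1, 57.4 and 52.6 CPM with DMSO in JJN3. It fell in both lines, and by far more in KMS12-BM (interaction -2.59 ± 0.25, adjusted p = 4.12e-06). PSEN2, a catalytic subunit of gamma-secretase (-1.70 ± 0.18), AHRR, the repressor of the aryl hydrocarbon receptor (-1.55 ± 0.17), CELSR1, a cadherin (-1.55 ± 0.22), and ID2, an inhibitor of helix-loop-helix factors (-1.44 ± 0.15), were also lower. CD151, a tetraspanin, had 51.2, 44.2 and 46.04 CPM with TG003 and 92.5, 84.6 and 92.9 CPM with DMSO in KMS12-BM. It had 96.3, 80.05 and 90.8 CPM with TG003 and 65.9, 66.3 and 65.8 CPM with DMSO in JJN3. It fell in KMS12-BM and rose in JJN3 without overlap (interaction -1.36 ± 0.14, adjusted p = 2.42e-06), as did IQCG, GALNS, ZNG1A and CLU by their calls. ZC3H6, NOL3, FRK, TCAF2, GBE1 and EEIG2 rose in KMS12-BM and fell in JJN3, from 1.38 ± 0.14 for EEIG2 to 1.76 ± 0.22 for ZC3H6. RAB42, a small GTPase, fell in both lines and further in JJN3 (2.14 ± 0.46). The call of MTX1 (interaction 1.65 ± 0.49, adjusted p = 0.0413) was lost without any 1 of the 12 libraries.

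By size alone, most of the 12 most positive and 12 most negative interactions lay in genes that 1 line hardly expressed. Of these 24 genes 17 were under 1 CPM in both groups of a line, 10 in KMS12-BM and 7 in JJN3. ZNF534 had 508, 480 and 587 reads with TG003 and 290, 462 and 540 reads with DMSO in KMS12-BM, and 0, 0 and 0 reads with TG003 and 0, 7 and 3 reads with DMSO in JJN3, too few for a fold in JJN3. BTK, a kinase of B cell receptor signalling, had 136, 117 and 138 CPM with TG003 and 185, 222 and 205 CPM with DMSO in KMS12-BM. It had 0.923, 0.704 and 0.946 CPM with TG003 and 0.29, 0.0564 and 0.251 CPM with DMSO in JJN3, so that its rise in JJN3 was at a level under 1 CPM. EIF2S3B, EIF5AL1 and UQCRHL, also among the 24, are near-identical to other genes, and their values are uncertain.

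Calls were also counted by whether a gene has a processed pseudogene named after it. Of 1674 protein-coding genes with a named one 18% were called (110 higher, 6.57%, and 192 lower, 11.5%, median -0.063), against 15.9% of 11379 without (938 higher, 8.24%, and 870 lower, 7.65%, median 0.018). All 75 tested genes of cytosolic ribosomal proteins have such copies. TG003 libraries held more reads for 58 of them in KMS12-BM and 54 in JJN3 by the test (26.1% and 23.3% of all genes). In the interaction 11 were higher (14.7%) and 2 lower (2.67%), against 8.03% and 8.14% of all genes. That count of 11 was 18 with DESeq2 or library sizes from protein-coding genes alone, 17 with no filter or without KMS12-BM TG003 library 1, 5 without KMS12-BM TG003 library 2, and 7 without KMS12-BM DMSO library 2 or JJN3 TG003 library 1. The change of these genes with TG003 cannot be told apart from the placement difference.

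Of 35 proteasome genes 5 were lower (14.3%, against 8.14% of all genes), with PSMD3 at -0.61 ± 0.12. That count of 5 was 11 with no filter, 9 in the 12 libraries alone, and 8 with pseudogene counts summed or without JJN3 DMSO library 1. Of 25 cytosolic heat shock genes 4 were lower and 4 higher (16% each, against 8.14% and 8.03% of all genes), with the chaperone HSPA8 lower (-0.56 ± 0.11) and DNAJB4 higher (0.92 ± 0.16). The 4 higher were 2 without KMS12-BM DMSO library 2 or 3, JJN3 DMSO library 3, KMS12-BM TG003 library 1 or 2, or JJN3 TG003 library 2, and of members with no named pseudogene 1 was lower. The share called in either direction was 11.1% of 36 integrated stress response targets, 11.1% of 27 NRF2 and heme genes, 12% of 25 NF-kappaB targets, 14.7% of 34 lysosome genes and 16.1% of 31 immediate-early genes, against 16.2% of all genes. Of the stress response targets 3 were higher and 1 lower, counts that were 1 to 8 and 0 to 3 under 23 settings. CTSS, a lysosomal protease, fell in both lines and further in JJN3 (1.02 ± 0.12). NR1H3, the receptor LXR alpha, rose by 2.12 ± 0.14 in KMS12-BM and 1.33 ± 0.14 in JJN3, the call among 14 LXR genes. ACSS2, which makes acetyl-CoA, fell in JJN3 (-1.29 ± 0.18) with 0.23 ± 0.13 in KMS12-BM.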

How the data were processed

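Read counts per gene were deposited by the authors, 1 table for each of 18 libraries. Per the submitters' processing notes, cutadapt 1.4, TopHat2 2.0.11, HTSeq 0.6.1p1, DESeq2 1.12.4 and the build hg19 were used. No source at hand names the alignment options, annotation or strand setting. HTSeq's rows that name no gene held 17.5% to 31.2% of the reads and stayed out of library sizes and tests. The deposited size-factor tables were not used. Of 57905 gene IDs 55538 matched the annotation at hand.

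Counts were tested with edgeR 4.0.16 (R 4.3.3): TMM scaling, filterByExpr with a minimum count of 10 and total of 15, 1 robust quasi-likelihood fit to 18 libraries in 6 groups (12 residual degrees of freedom), and Benjamini-Hochberg adjustment over 17772 genes. SE is the absolute log2 change divided by the square root of F, an approximation. CPM are TMM-scaled. The test was checked on simulated counts. Alternatives used limma 3.58.1, DESeq2 1.42.0, other scalings and filters, 12 libraries alone, pseudogene counts summed into parents, and each library left out.

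Named genes were the 12 most positive and 12 most negative called interactions at a mean of 5 CPM, the leading genes of each response pattern and list, and a few genes always named. Some genes that this rule or the lists hold are not reported here. Other genes are examples chosen after their values were seen. The members and the gene lists were chosen with earlier results of these data known. Each library title carries its own number, and runs of consecutive numbers, with a library of every group in each, were taken as library-number sets. In JJN3, deviations of same-set TG003 and DMSO libraries from their group means correlated at 0.148 to 0.158. Pairs from different sets there correlated at -0.0368 or below. In KMS12-BM same-set pairs correlated at 0.0729 to 0.250, and DMSO library 3 and TG003 library 2, from different sets, at 0.0926. Same-set pairs thus stood above all others in JJN3 and not in KMS12-BM. The main fit did not use the numbers. The labels do not say what the numbers mark. Promoters came from RefSeq (GRCh38.p14).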

Additional observations from a re-analysis of the deposited data

Results flagged for a closer look

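Among the named genes, those listed here were called in opposite directions in the lines, and the test of that difference was itself past the threshold (edgeR). Values are the log2 change in KMS12-BM minus that in JJN3.

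Genes that fell with TG003 in KMS12-BM and rose in JJN3 had interactions of -2.81 for BTK, -2.42 for CD82, -1.82 for IQCG, -1.67 for GALNS, -1.56 for HRK and -1.49 for ZNG1A. In the same direction were -1.41 for CLU, -1.36 for CD151, -0.95 for WDR43, -0.87 for PNO1, -0.86 for BAK1, -0.64 for IARS1, -0.57 for PRPF4B and -0.48 for SYNCRIP.

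Genes that rose with TG003 in KMS12-BM and fell in JJN3 had interactions of 0.91 for ATF3, 1.03 for E2F8, 1.38 for EEIG2, 1.45 for GBE1, 1.45 for TCAF2, 1.48 for GPNMB, 1.49 for FRK, 1.51 for NOL3 and 1.66 for IRF1. The others of this kind were 1.72 for TNFSF10 and 1.76 for ZC3H6. BTK and HRK in JJN3, and CD82 in KMS12-BM, were near 0, so their values depend on few reads. The test also gave opposite calls for SEPTIN14, COL6A3, BACE1, GBP5, STK32B, FMN1, AK4, CYTL1 and ZNF534, each with under 10 reads in the 3 libraries of a group, and no size is given for them.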

How the results depend on the processing

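The interaction had 1048 higher and 1062 lower calls. The lower count was 1614 in the 12 libraries alone and 1649 when each parent gene took over the counts of its pseudogenes; the cause was not tested. The higher count stayed within 1.5 times under the other scalings, filters and tools and in those settings. Leaving out 1 library at a time gave 761 to 995 higher and 789 to 1077 lower calls in the interaction, 2960 to 3412 up and 2969 to 3459 down in KMS12-BM, and 2704 to 3130 up and 2950 to 3414 down in JJN3. With the replicate block on the library-number set, the interaction had 1181 higher and 1196 lower calls, and no count in either line moved by over 1.5 times. Of the named genes the block added calls for CLK4 and ATF4 and changed no other. None of the 145 named genes reversed under any of 22 settings. The most calls of named genes were lost without KMS12-BM TG003 library 2 (14). Ribosome biogenesis had 33 to 47 lower members under 23 settings, with a median interaction of -0.61 to -0.48. The median interaction of all protein-coding genes lay between -0.066, with pseudogene counts summed into parents, and 0.058, with library sizes from protein-coding genes alone. With 3 libraries per group, and fewer reads in genes expressed in 1 line, small differences were not detectable.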
